A study of Mus musculus with 8 samples.

Results

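The genes described here were 38 interferon stimulated genes of the mouse, fixed by name as genes that type I interferon is known to induce, and 36 of them had a row in the deposited table of 32285 genes (2 were not analysed here). Immune cells were taken from grafts of NIT-1 cells, a beta cell line from an insulinoma of a NOD mouse, that were either WT or Rnls mutant and lay under the skin of immunodeficient NOD.scid mice. All mice had received splenocytes of recently diabetic NOD mice, and grafts were removed at day 10 or day 17 after that transfer, with 4 grafts for each genotype and day and 16 grafts in all. Living CD45+ cells were sorted and each graft was marked by 1 of 4 hashtag antibodies. Grafts of 1 genotype and day were sequenced as 1 10x Genomics library, so library cannot be told apart from genotype and day. The labels give neither the age and sex of the mice nor the number of clones behind the mutant line, and WT and mutant cells lay in opposite flanks of the same mice. The genotype is that of the grafted beta cells alone, and the immune cells of both kinds of graft were not edited. NOD.scid mice lack their own T and B cells and keep their own myeloid and NK cells, and the files do not say which cells came from the host and which from the transferred spleen.

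Type I interferons (interferon beta and the interferon alphas) are secreted by cells that sense foreign or misplaced nucleic acid. They bind a receptor made of Ifnar1 and Ifnar2, the kinases Jak1 and Tyk2 then activate transcription factors, and these join Irf9 in a complex that binds a short promoter element and switches on a shared set of antiviral genes. The set is best known from virus infection, and in autoimmune diabetes it is a recurrent feature of inflamed islets. Several of the same genes also answer to interferon gamma from T and NK cells, so their level alone does not name the interferon.

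The promoter element bound by that complex is shown first, because it is the sequence feature through which members of this group are known to be induced. Its core was searched as GAAANNGAAA and, on the other strand, TTTCNNTTTC in the 250 bases before the RefSeq start of each gene (windows on GRCm38). A window was at hand for 29 of the 36 members, and 12 of these (41.4%) held the core, against 936 of 27025 genes with a window (3.46%). Over the whole window of 300 bases, which runs past the start, 16 of the 29 held it, against 3.99% of all genes. The element of interferon gamma signalling (searched as TTCNNNGAA, which reads the same on both strands and can overlap the first) was in 5 of the 29 (17.2%) and in 8.13% of all genes. Stretches are printed for 5 members that held a match and whose values the results turn on, and for Ifit3b, a near copy of Ifit3. They run 5′ to 3′ on the gene's strand, with the bases of each match in capitals. Other members whose values are given per graft, Irf7, Oasl1, Xaf1 and Ifi47 among them, had a window and no match before the start.
Isg15, chr4:156200855-156200916, minus strand: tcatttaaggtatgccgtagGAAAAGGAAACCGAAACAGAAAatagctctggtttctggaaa
Ifit1, chr19:34640765-34640833, plus strand: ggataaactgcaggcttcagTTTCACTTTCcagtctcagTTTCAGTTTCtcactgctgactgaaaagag
Ifit3, chr19:34583353-34583436, plus strand: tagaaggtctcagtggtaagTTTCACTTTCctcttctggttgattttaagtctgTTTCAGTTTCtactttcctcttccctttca
Ifit3b, chr19:34607749-34607832, plus strand: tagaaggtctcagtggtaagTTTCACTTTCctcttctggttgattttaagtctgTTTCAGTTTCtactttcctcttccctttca
Rsad2, chr12:26456543-26456592, minus strand: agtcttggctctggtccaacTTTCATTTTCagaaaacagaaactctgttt
Bst2, chr8:71537567-71537622, minus strand: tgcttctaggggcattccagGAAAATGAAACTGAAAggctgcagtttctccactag
Isg15 held 3 overlapping matches that began 78 bases before its start, and Ifit1 held 2 that began 104 bases before its start. The stretches of Ifit3 and Ifit3b were identical over 84 of 84 bases. These genes lie side by side on chromosome 19, with Ifit2 at 34550694-34576419, Ifit3 at 34583531-34588731, Ifit3b at 34607970-34613401 and Ifit1 at 34640871-34650009. Reads that fit both Ifit3 and Ifit3b may have been split or dropped by the authors' counting, so the levels of both are uncertain. A match is a description of the letters and not a binding site. Among members tested in macrophages, the median log2 fold change from day 10 to day 17 was -0.86 for the 11 with a match before the start. It was -1.01 for the 17 with a window and no match before the start, some of which held the core at or past the start.

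The table held 22441 cells with a median of 3520 UMIs (unique molecular identifiers, each standing for 1 captured transcript). Between 350 and 1967 cells and between 1742746 and 9729233 UMIs were counted per graft. WT day 17 graft 3 stood apart in depth with a median of 7822.5 UMIs per cell, against 2881.5 to 5974 in the other grafts. Only 42 barcodes were shared by 2 libraries. The deposited cell types were used, and most markers checked were highest where the names say. The exceptions were Cd3e and Ccr2, highest in Treg, Zbtb46 in NK cells, Ncr1 in ILC-1, Il7r in CD4 T cells and Cd200r1 in mast cells. For Stem-Progenitor cells only the cycling genes Mki67 and Top2a were checked, so the name itself was not checked. Their cluster 11 was led by Hist1h1b and Pclaf and cluster 24 by Gzmd and Gzme, and the type held 4261 Ifng UMIs. B cells (35 cells), mast cells (13) and Stem-Progenitor cells (1 WT graft at day 17) had too few to be tested. UMIs were summed per graft and cell type and are given as CPM, the count scaled to a common total for each graft and type. A gene was called where edgeR's quasi-likelihood test gave a Benjamini-Hochberg adjusted p under 0.05 over all genes tested.

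Interferon stimulated transcripts were most abundant in granulocytes, monocytes and macrophages, in that order, and the order of the lower types depended on the measure. Summed over the 36 members, the level was 12991 ± 5208 CPM in granulocytes (SD, n = 12 grafts with at least 10 such cells), 7503 ± 1468 in monocytes (n = 15), 5782 ± 1320 in macrophages (n = 16) and 3788 ± 1335 in DCs (n = 16). It was 2630 ± 810 in Treg (n = 14), 1879 ± 373 in CD4 T cells (n = 16), 1862 ± 341 in CD8 T cells (n = 16), 1518 ± 377 in ILC-1 (n = 8), 1502 ± 194 in Stem-Progenitor cells (n = 12) and 1413 ± 400 in NK cells (n = 16). CD4 and CD8 T cells differed by less than their spread, as did ILC-1, Stem-Progenitor and NK cells, and the ranges of monocytes and macrophages overlapped. At day 10 alone Stem-Progenitor cells (1547 CPM) and ILC-1 (1569) lay below NK cells (1734). Without the 3 most abundant members Stem-Progenitor cells were lowest (639), Treg (1984) lay above DCs (1907), and NK cells (1231) lay above CD4 T cells (1081). By the mean log2 level ILC-1 was lowest. Cell types were drawn from the same transcripts, so these levels are a description with no test.

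**Figure D1:**
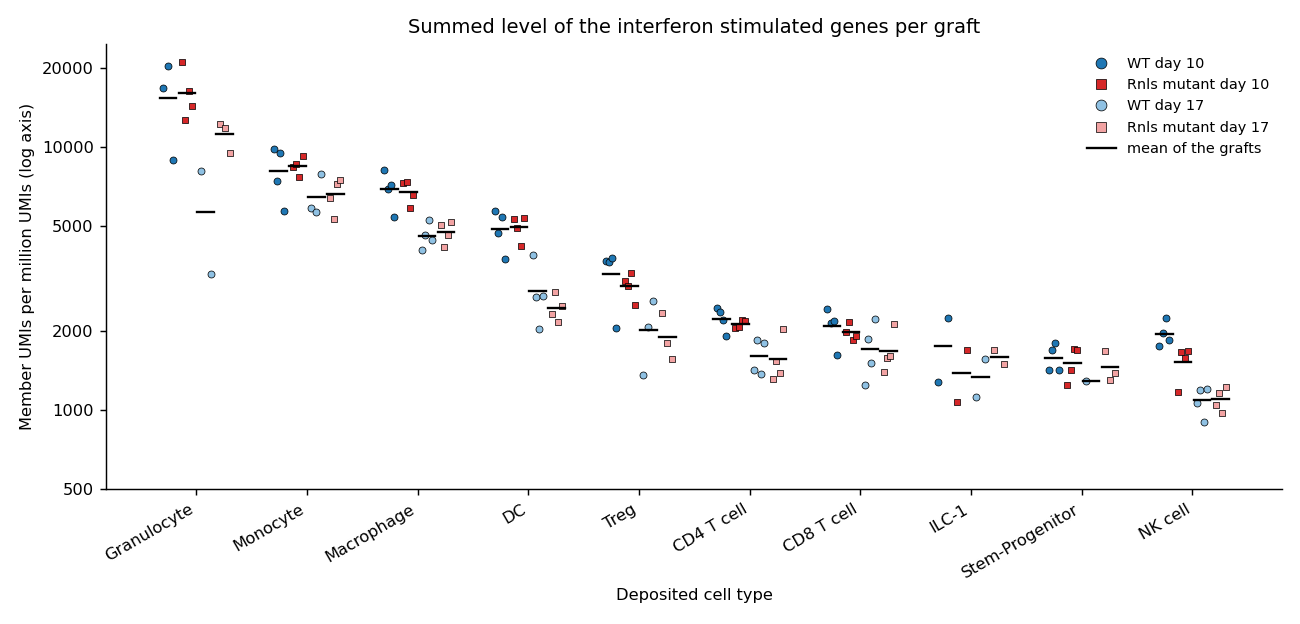
Summed CPM of the 36 interferon stimulated genes (log axis) in each deposited cell type; points are grafts, colours and shapes the 4 groups, and bars the group means. Granulocytes reach 21151 and NK cells lie between 898 and 2234, and in macrophages the 8 day 17 grafts lie below the 8 day 10 grafts.

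A few membrane proteins carried much of that sum. Ifitm3, which blocks the entry of enveloped viruses, Ly6e, a small surface protein induced by interferon, and Bst2, the tetherin that holds budding virus at the membrane, gave 50.2% of all member UMIs. Ifitm3 alone gave 27.5% and was highest in monocytes (2522 ± 367 CPM, n = 15) and lowest in NK cells (42.7 ± 31.3, n = 16). Bst2 was highest in DCs (720 ± 192, n = 16) and was 70.1 ± 30.3 in NK cells (n = 16).

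The induced antiviral genes had a different order. Isg15, a ubiquitin-like protein that is attached to other proteins, was at 2870 ± 1424 CPM in granulocytes (n = 12), 404 ± 276 in monocytes (n = 15), 339 ± 333 in macrophages (n = 16) and 30.7 ± 15.5 in Stem-Progenitor cells (n = 12). Rsad2, the viperin that disturbs viral replication, was at 1387 ± 728 in granulocytes, 175 ± 116 in monocytes and 173 ± 138 in macrophages, and at 8.33 ± 13.5 in NK cells. Monocytes and macrophages did not differ beyond their spread for either gene. Irf7, the transcription factor that amplifies interferon production, was the only one of the 36 members with its highest mean in NK cells (316 ± 152, n = 16), followed by CD8 T cells (238 ± 125, n = 16) and granulocytes (218 ± 120, n = 12), which did not differ beyond their spread. In all, 28 members had their highest mean in granulocytes, 5 in monocytes (Dhx58, Ifi44, Eif2ak2, Ifitm3 and Ly6e), 2 in DCs (Bst2 and Phf11b) and 1 in NK cells. Granulocyte levels rest on 350 cells, and per cell thinned to 1000 UMIs a WT day 10 granulocyte held 16.1 member UMIs on average and a WT day 10 macrophage 7.38.

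Interferon stimulated transcripts were lower in macrophages at day 17 than at day 10. Macrophages held the most UMIs of any cell type, and had more members called lower (28 of 35 tested) than DCs (22 of 27) or any other type. The summed level of macrophages was 6874 CPM at day 10 and 4690 at day 17, a ratio of 0.682. The 8 grafts of each day did not overlap, and the ratio was 0.662 in WT and 0.703 in Rnls mutant grafts. The ratio was further from 1 in DCs (0.534), granulocytes (0.569), Treg (0.623) and NK cells (0.631), where the ranges of the days overlapped. Of the 35 members tested in macrophages, 28 fell and 0 rose, where 25.3% of all genes tested were called lower. All 36 members entered the fit without a filter on low counts, and 28 were again called lower, against 12.1% of the genes in that fit, with a median log2 fold change of -0.92 over the members and 0.08 over all genes. In DCs 26 of 36 were called lower without the filter, with a median log2 fold change of -1.79 over the members. Members that pass the filter through day 10 alone had to differ, so the filtered count is no more than a description.

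In macrophages the largest fall of any member was that of Isg15. For Isg15, the day 10 grafts gave 839, 603, 594 and 178 CPM (WT) and 1034, 476, 538 and 648 (Rnls mutant) in macrophages, and the day 17 grafts 70.3, 150.2, 63.7 and 63 (WT) and 40.5, 43.2, 47.2 and 36.7 (Rnls mutant). Each day 10 graft lay above every day 17 graft, WT day 10 graft 4 was the lowest of day 10, and the log2 fold change was -3.51 ± 0.28 (SE, adjusted p = 8.4e-08) by edgeR. Usp18, the protease that removes Isg15 and damps the receptor, fell by 1.77 ± 0.25 on the log2 scale (adjusted p = 2.38e-05) by edgeR, and its CPM overlapped between days only because WT day 17 graft 2 lay above WT day 10 graft 4 and Rnls mutant day 10 graft 2. Herc6, the ligase that attaches Isg15, fell by 0.89 ± 0.15 on the log2 scale (adjusted p = 8.21e-05) by edgeR.

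The IFIT proteins bind viral RNA and are among the most strongly induced genes of the pathway. In macrophages, Ifit1 measured 61.1, 51.2, 52.1 and 16.2 CPM in WT grafts and 26.4, 24.7, 31.4 and 26.4 in Rnls mutant grafts at day 10, against 6.77, 5.78, 11.7 and 3.78 (WT) and 6.78, 4.8, 7.33 and 3.41 (Rnls mutant) at day 17. No day 17 graft reached the lowest day 10 graft, and Ifit1 fell by 2.47 ± 0.24 on the log2 scale (adjusted p = 5.21e-07) by edgeR. Ifit3 was at 51.7, 28.4, 52.7 and 14.1 CPM in macrophages of the WT and at 28.8, 45.1, 16.3 and 23.7 of the Rnls mutant grafts at day 10, and at 9.89, 22, 11.1 and 7.55 (WT) and 4.79, 8.53, 6.45 and 11.9 (Rnls mutant) at day 17. The days overlapped for Ifit3, because WT day 17 graft 2 lay above WT day 10 graft 4 and Rnls mutant day 10 graft 3. Ifit3 fell by 2.03 ± 0.28 on the log2 scale (adjusted p = 1.61e-05), and Ifit2 fell by 1.96 ± 0.24 on the log2 scale (adjusted p = 5.09e-06), both by edgeR. Ifit3b was filtered out for few UMIs in each cell type and was kept in all CD45+ cells, where it fell (log2 fold change -1.28 ± 0.46). Without the filter it was also called lower in macrophages (-2.28, adjusted p = 0.000229) and granulocytes (-3.10, adjusted p = 0.0303) by edgeR.

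**Figure D2:**
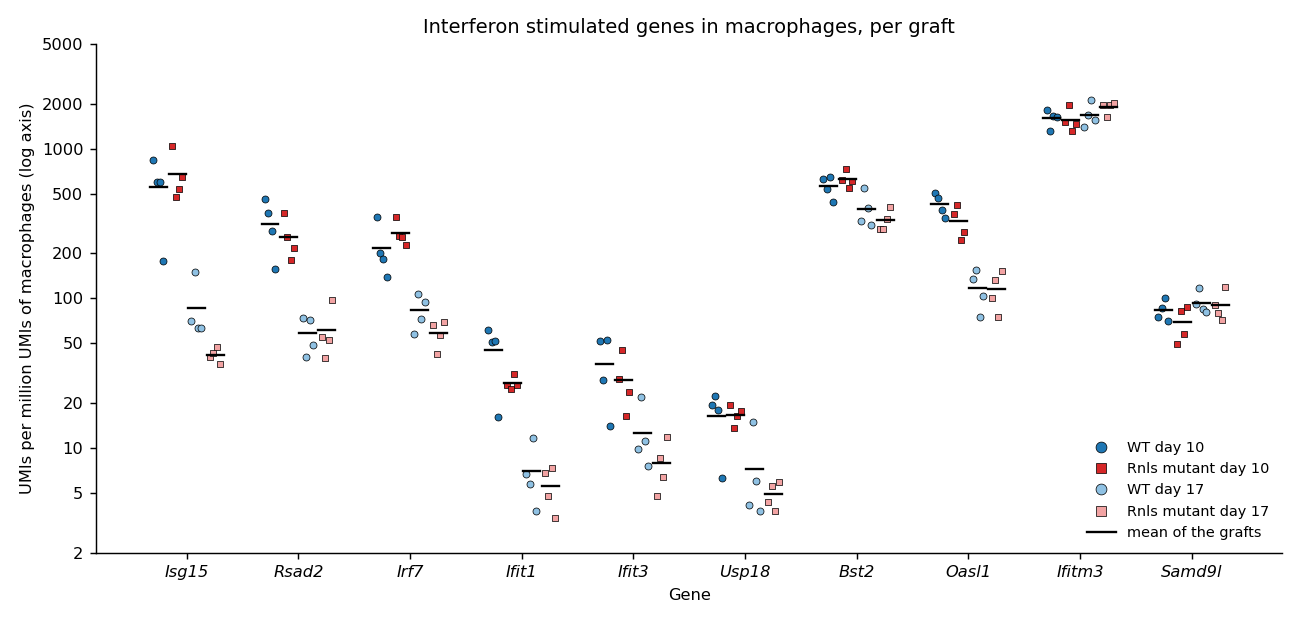
CPM in macrophages (log axis) for 10 members; points are grafts, colours and shapes the 4 groups and bars the group means. Isg15, Rsad2, Irf7, Ifit1 and Oasl1 separate the days, whereas the days overlap for Ifitm3 and Samd9l.

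Among transcription factors, Irf7 and Stat2 fell in macrophages and Irf9 was not called. For Irf7, the day 10 grafts gave 348, 200.3, 183 and 139 CPM (WT) and 348, 261, 257 and 227 (Rnls mutant) in macrophages, and the day 17 grafts 57.8, 107, 72.8 and 95.1 (WT) and 66.8, 42.4, 56.9 and 69.1 (Rnls mutant). The days did not overlap, and Irf7 fell by 1.98 ± 0.18 on the log2 scale (adjusted p = 3.55e-07) by edgeR. Stat2 fell by 0.47 ± 0.11 on the log2 scale (adjusted p = 0.0024) by edgeR, and Irf9 was at a log2 fold change of -0.22 ± 0.13 and was not called.

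Most antiviral enzymes and effectors fell with them, with 4 of 5 oligoadenylate synthetase genes, 4 of 4 sensors and 5 of 7 other effectors called lower in macrophages. In macrophages, Rsad2 measured 458, 369, 280.1 and 156 CPM in WT grafts and 369.9, 258, 180.3 and 216 in Rnls mutant grafts at day 10, against 74.4, 40.4, 71.3 and 49.1 (WT) and 55.4, 40.3, 53.1 and 97.2 (Rnls mutant) at day 17. Oasl1 was at 507, 465, 387 and 344 CPM in macrophages of the WT and at 365, 421, 244 and 279 of the Rnls mutant grafts at day 10, and at 135, 154, 75.2 and 103 (WT) and 100.3, 132, 75.1 and 153 (Rnls mutant) at day 17. Neither gene overlapped between the days. Rsad2 fell by 2.41 ± 0.23 on the log2 scale (adjusted p = 4.36e-07), and Oasl1, an oligoadenylate synthetase-like protein that holds back Irf7 translation, fell by 1.86 ± 0.18 on the log2 scale (adjusted p = 4.48e-07), both by edgeR. Of the other oligoadenylate synthetase genes, whose products start RNA decay or resemble those that do, Oasl2 (-1.06), Oas1a (-0.86) and Oas3 (-0.73) fell on the log2 scale and Oas2 did not (0.26 ± 0.22, not called). The nucleic acid sensors Ifih1 (-1.19), Zbp1 (-1.42), Dhx58 (-0.84) and Ddx58 (-0.32) were all called lower. So were Isg20, an RNA exonuclease (-1.74), Rtp4 (-1.20), Cmpk2, a mitochondrial nucleotide kinase (-0.79), Trim30a (-0.38), Xaf1 (-1.42), Ifi35 (-1.01), Ifi44 (-1.02), Phf11b (-0.97) and the GTPase Ifi47 (-0.43).

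Of the 3 abundant membrane genes, Bst2 and Ly6e fell in macrophages and Ifitm3 was not called. For Bst2, the day 10 grafts gave 628, 538, 649 and 440.4 CPM (WT) and 620.4, 734, 543 and 607 (Rnls mutant) in macrophages, and the day 17 grafts 328, 549, 404 and 307 (WT) and 291, 291, 339 and 410.1 (Rnls mutant). Bst2 fell by 0.86 ± 0.13 on the log2 scale (adjusted p = 2.71e-05) by edgeR, and its days overlapped through WT day 17 graft 2. In macrophages, Ifitm3 measured 1823, 1305, 1656 and 1627 CPM in WT grafts and 1510, 1945, 1309 and 1471 in Rnls mutant grafts at day 10, against 1394, 1686, 2118 and 1550 (WT) and 1968, 1629, 1959 and 2007 (Rnls mutant) at day 17. Ifitm3 overlapped fully between days and was not called (log2 fold change 0.03 ± 0.10). Ly6e fell by 0.53 ± 0.16 on the log2 scale. The 7 members tested in macrophages and not called were Ifitm3, Samd9l, Slfn5, Oas2, Irf9, Parp14 and Eif2ak2, a kinase that stops translation on sensing double-stranded RNA. With the 3 most abundant members left out, the ratio of summed levels was 0.475 in macrophages, further from 1 than the 0.682 of the full sum.

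The share of macrophages with an Isg15 UMI followed the level. At 1000 UMIs per cell it was 33.9 ± 10.6% at day 10 and 5.15 ± 2.85% at day 17 (SD, n = 8 grafts each), and unthinned it was 71.0 ± 10.2% and 19.6 ± 8.99%. The thinned share in CD4 T cells of the same libraries was 9.82 ± 3.38% and 5.29 ± 3.89%.

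Different deposited clusters held most macrophages at each day. At day 10 clusters 4 and 13 held 1443 and 509 macrophages, and at day 17 clusters 2 and 5 held 1702 and 1515. Within clusters the ratio of the summed level at day 17 over day 10 was 0.727 in cluster 2, 0.534 in cluster 4, 0.647 in cluster 5, 0.828 in cluster 10, 0.792 in cluster 12 and 0.340 in cluster 13. All 6 macrophage clusters were below 1, with cluster 10 resting on 1 graft at day 10 and cluster 13 on 1 graft at day 17. Cluster 4 was led by Inhba, Mmp12 and Nos2, and cluster 13 by the chaperone gene Hspb1 with Ccl8 and C1qa. Among the other clusters, monocyte cluster 14, led by Adgre4, Pparg and Ace, was at 1.09 and monocyte cluster 1, led by Ly6c2 and Chil3, at 0.719. Without the 3 most abundant members cluster 14 was at 0.797 and cluster 1 at 0.567. With cells of all grafts pooled, cluster 14 went from 5862 to 5585 CPM. Cluster 25, the DCs led by the plasmacytoid genes Siglech and Ccr9, was at 6831 CPM over 137 cells and cluster 17, led by Cd209a and Mgl2, at 6682, against 2348 in cluster 19, led by Xcr1. Without the 3 most abundant members cluster 25 was at 1871 CPM, near cluster 21 (1821), and cluster 17 was at 3321 and cluster 19 at 1446.

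**Figure D3:**
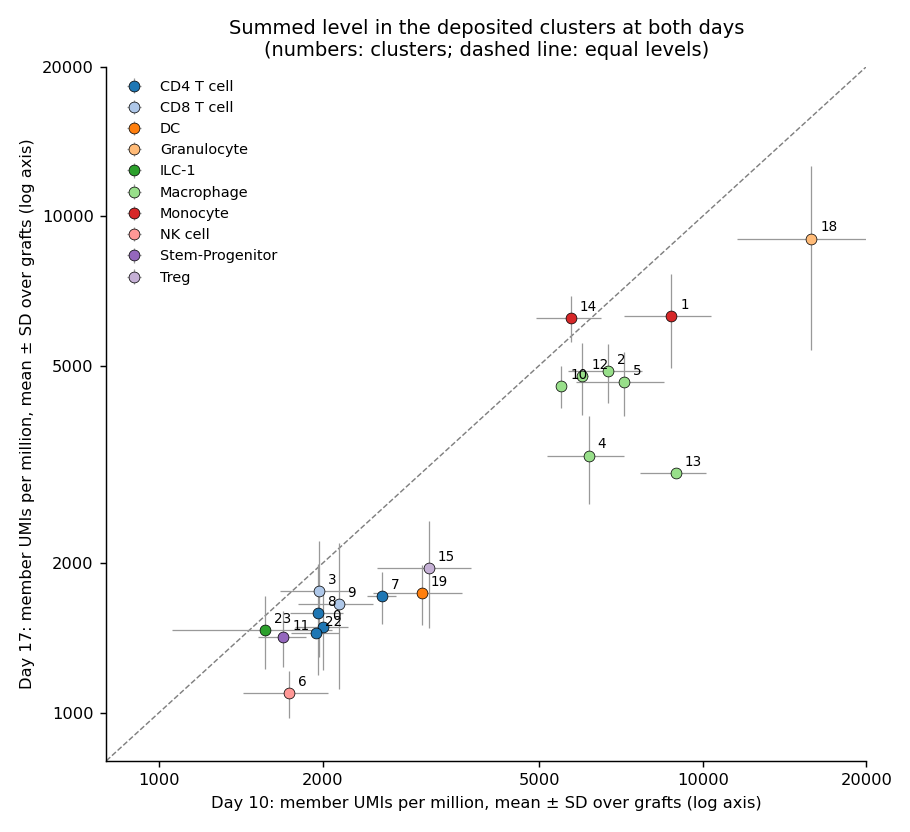
Summed level of the 36 members in each deposited cluster at day 10 and day 17, in CPM (log axes); points are means over grafts with at least 10 cells, error bars are SDs where 2 or more grafts were at hand, and the dashed line marks equal levels. Monocyte cluster 14 lies above the line at 1.09 (0.797 without the 3 most abundant members). Granulocyte cluster 18 (0.569) and the macrophage clusters lie below it.

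DCs also lost members of the set. Their summed level went from 4940 to 2637 CPM (ratio 0.534), with overlap only through WT day 17 graft 1. The clusters of DCs were held in different numbers at each day: at day 10 clusters 17, 21, 19 and 25 held 345, 210, 172 and 98 cells, and at day 17 they held 41, 30, 169 and 39. Cluster 19 was the only DC cluster with grafts of at least 10 cells at both days, and its ratio was 0.573 (6 grafts each). With cells of all grafts pooled, with no replicate error, cluster 17 went from 6923 to 5061 CPM, cluster 21 from 2754 to 977, cluster 19 from 2943 to 1749 and cluster 25 from 7098 to 6285. The part of this shift between clusters in the calls for DCs was not tested. Of 27 members tested, 22 fell and 0 rose, against 13.6% of all genes, and without the filter 26 of 36 were lower against 6.63%. Ifi47 was at 125, 123, 146 and 92.9 CPM in DCs of the WT and at 107, 114, 87.5 and 128 of the Rnls mutant grafts at day 10, and at 31.4, 27.9, 31.1 and 25.3 (WT) and 26.3, 21.1, 23.8 and 39.8 (Rnls mutant) at day 17. For Isg15, the day 10 grafts gave 471, 285, 358 and 158 CPM (WT) and 541, 232, 184 and 415 (Rnls mutant) in DCs, and the day 17 grafts 17.9, 83.7, 16.2 and 0 (WT) and 9.55, 29.5, 47.5 and 0 (Rnls mutant). Neither gene overlapped between days, with Isg15 at 0 in 1 graft of each genotype at day 17. Ifi47 fell by 2.04 ± 0.16 on the log2 scale (adjusted p = 1.81e-07) and Isg15 fell by 3.50 ± 0.42 on the log2 scale (adjusted p = 9.08e-06), both by edgeR. In DCs, Xaf1 measured 102, 51, 81.3 and 34.8 CPM in WT grafts and 98.9, 56.8, 70.9 and 73.2 in Rnls mutant grafts at day 10, against 31.4, 21.7, 11.2 and 19 (WT) and 4.78, 12.6, 0 and 0 (Rnls mutant) at day 17. Oasl2 was at 88.2, 69, 79.1 and 31 CPM in DCs of the WT and at 96.3, 99.3, 49.8 and 102 of the Rnls mutant grafts at day 10, and at 17.9, 15.5, 7.46 and 57 (WT) and 0, 4.21, 2.64 and 13.3 (Rnls mutant) at day 17. For Zbp1, the day 10 grafts gave 167, 205, 239.6 and 111 CPM (WT) and 169, 208, 211 and 291 (Rnls mutant) in DCs, and the day 17 grafts 85.2, 55.8, 87 and 25.3 (WT) and 66.9, 63.2, 42.2 and 0 (Rnls mutant). The days were apart for Xaf1 and Zbp1, and for Oasl2 WT day 17 graft 4 lay within day 10. Xaf1 fell by 2.87, Oasl2 by 3.34 and Zbp1 by 1.73 on the log2 scale. The 5 members tested and not called were Samd9l, Bst2 (-0.30 ± 0.20), Stat2, Irf9 and Phf11b.

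Other core members fell in DCs as well. In DCs, Irf7 measured 158, 85.1, 124 and 60.9 CPM in WT grafts and 154, 102, 96.6 and 152 in Rnls mutant grafts at day 10, against 8.97, 77.5, 26.1 and 12.7 (WT) and 33.4, 25.3, 21.1 and 92.8 (Rnls mutant) at day 17. Rsad2 was at 83.6, 38.5, 60.4 and 46.4 CPM in DCs of the WT and at 133, 42.6, 55.8 and 50.3 of the Rnls mutant grafts at day 10, and at 0, 46.5, 8.7 and 6.34 (WT) and 2.39, 8.43, 0 and 26.5 (Rnls mutant) at day 17. For Ifit1, the day 10 grafts gave 34.8, 29.6, 64.8 and 20.3 CPM (WT) and 23.4, 2.36, 7.54 and 32 (Rnls mutant) in DCs, and the day 17 grafts 0, 9.3, 3.73 and 0 (WT) and 0, 4.21, 2.64 and 0 (Rnls mutant). Each overlapped between days: Irf7 through WT graft 2 and Rnls mutant graft 4 of day 17, Rsad2 through WT day 17 graft 2, and Ifit1 through 2 low Rnls mutant grafts of day 10. Log2 fold changes were -1.75 ± 0.33 for Irf7, -2.77 ± 0.51 for Rsad2, -3.07 ± 0.63 for Ifit1 and -1.95 ± 0.52 for Usp18, and all 4 were called.

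Monocytes lost a part of the set. They were few at day 17, with 10 to 91 cells in each graft used, and WT day 17 graft 2 (7 cells) was left out. Cluster 1 held 1690 monocytes at day 10 and 109 at day 17, and cluster 14 held 405 and 141. At day 10 the mean summed level was 8754 CPM in cluster 1 and 5721 in cluster 14. The part of this shift between clusters in the monocyte ratio and calls was not tested. The ratio of summed levels was 0.789, 19 of 35 members tested fell and 0 rose, and 8.11% of all genes were called lower. Without the filter 26 of 36 were lower against 5.69%. In monocytes, Oasl1 measured 309.8, 227, 207 and 135 CPM in WT grafts and 249, 288, 229.9 and 230.2 in Rnls mutant grafts at day 10, against 16.8, 20.1 and 0 (WT) and 31.6, 19.4, 48.8 and 48.7 (Rnls mutant) at day 17. Isg15 was at 916, 503, 721 and 255 CPM in monocytes of the WT and at 700, 616, 520.5 and 706 of the Rnls mutant grafts at day 10, and at 111, 125 and 215 (WT) and 205, 87.5, 137 and 243 (Rnls mutant) at day 17. The days did not overlap for either gene. Oasl1 fell by 3.43 ± 0.27 on the log2 scale (adjusted p = 4.76e-08) and Isg15 fell by 2.24 ± 0.25 on the log2 scale (adjusted p = 8.08e-06), both by edgeR. For Irf7, the day 10 grafts gave 432, 217, 232 and 115 CPM (WT) and 324, 291, 234 and 254 (Rnls mutant) in monocytes, and the day 17 grafts 79.4, 92.6 and 143 (WT) and 79, 97.2, 117 and 97.4 (Rnls mutant). In monocytes, Bst2 measured 485, 449, 429 and 379 CPM in WT grafts and 449.7, 534, 629 and 511 in Rnls mutant grafts at day 10, against 142, 443 and 250.3 (WT) and 166, 156, 254 and 243 (Rnls mutant) at day 17. Ifit2 was at 132, 78.4, 160 and 33.1 CPM in monocytes of the WT and at 55.8, 119, 50.7 and 113 of the Rnls mutant grafts at day 10, and at 21.6, 20.1 and 53.6 (WT) and 15.8, 19.4, 0 and 24.3 (Rnls mutant) at day 17. Among these, Irf7 overlapped through WT day 10 graft 4, Bst2 through WT day 17 graft 3 and Ifit2 through WT day 17 graft 4. Irf7 fell by 1.61, Bst2 by 1.19 and Ifit2 by 2.50 on the log2 scale, and Ifitm3 (-0.04 ± 0.11) and Ly6e (-0.20 ± 0.11) were not called. The count of 19 fell to 10 without WT day 17 graft 1.

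In granulocytes the summed level was 15838 CPM at day 10 (n = 7) and 9005 at day 17 (n = 5), a ratio of 0.569. Only 4 of 21 members tested fell, where 4.42% of the 927 genes tested were called lower, and no member rose. For Isg15, the day 10 grafts gave 3543, 5421 and 1849 CPM (WT) and 4024, 3279, 3899 and 3844 (Rnls mutant) in granulocytes, and the day 17 grafts 1705 and 415 (WT) and 3113, 2164 and 1182 (Rnls mutant). In granulocytes, Ifit2 measured 111, 687 and 210.1 CPM in WT grafts and 392, 281, 335 and 357 in Rnls mutant grafts at day 10, against 52.3 and 0 (WT) and 0, 106 and 0 (Rnls mutant) at day 17. WT day 17 graft 4 was the lowest for Isg15, whose days overlapped through WT day 10 graft 4, and Ifit2 was at 0 in 3 of 5 day 17 grafts and did not overlap. Isg15 fell by 1.21 ± 0.30 on the log2 scale (adjusted p = 0.015), Ifit2 fell by 2.62, Rsad2 by 1.22 and Ifit3 by 1.94 on the log2 scale, all called by edgeR. The count ran from 1 without WT day 17 graft 4 to 10 without WT day 10 graft 4.

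**Figure D4:**
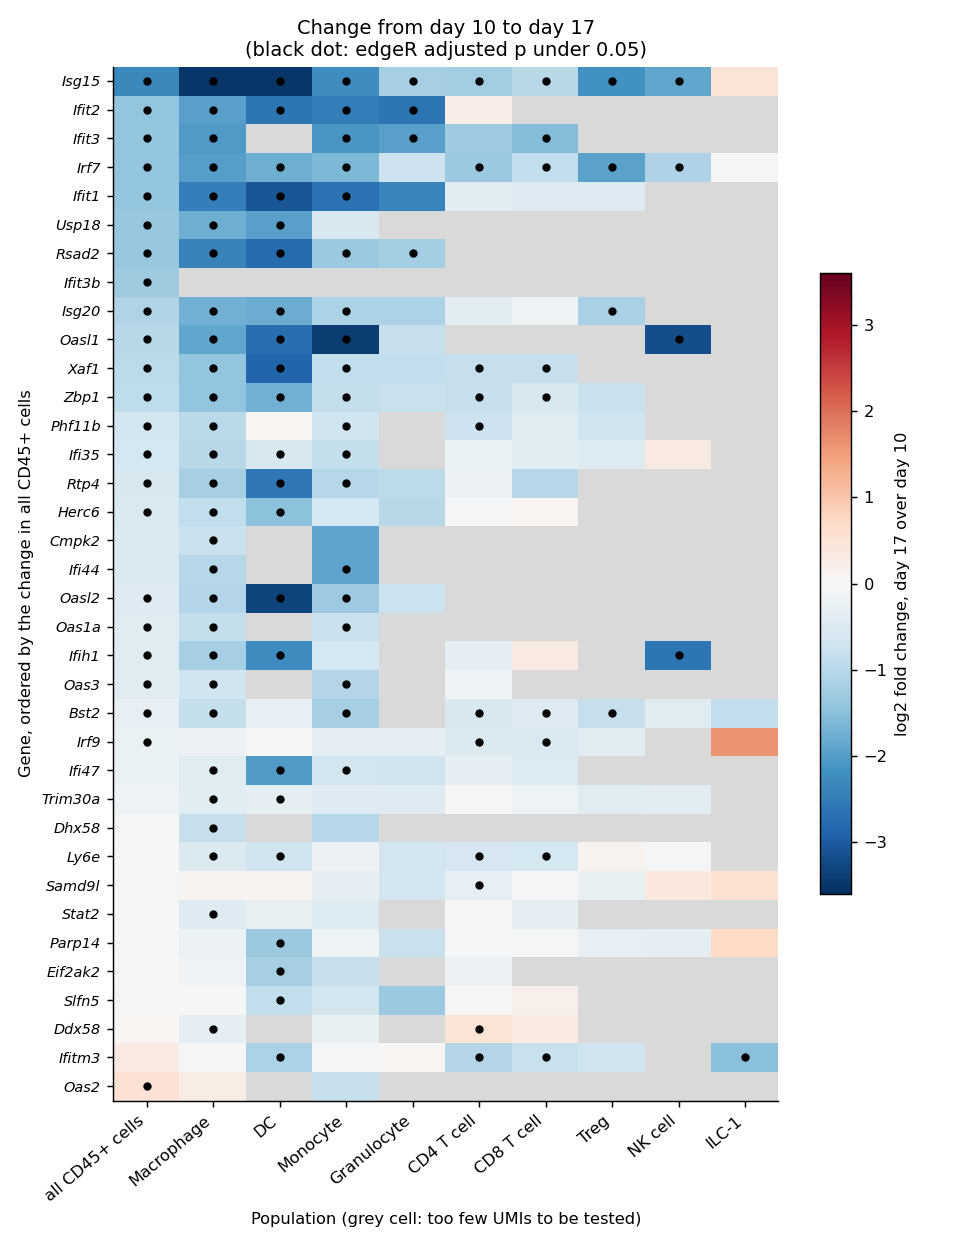
Log2 fold change from day 10 to day 17 of the 36 members (rows, ordered by the change in all CD45+ cells) in 10 populations (columns); blue is lower at day 17, red is higher, grey was not tested and a dot marks an adjusted p under 0.05 by edgeR. The macrophage column holds 28 dots and the ILC-1 column 1, and the dots on red are those of Oas2 in all CD45+ cells and Ddx58 in CD4 T cells.

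The member with the smallest adjusted p in CD4 T cells was Ifitm3, which was not called in macrophages. The summed level went from 2172 to 1587 CPM (ratio 0.731), 10 of 26 members tested fell and 1 rose, and 17.7% of all genes were called lower. Without the filter 15 of 36 were lower against 10.1%, and 0 were higher. Clusters 0, 7, 8 and 22 held 2013, 1140, 171 and 167 CD4 T cells at day 10. At day 17 they held 97, 227, 989 and 72. Within them the ratio of the summed level was 0.742, 0.667, 0.812 and 0.744, with cluster 22 resting on 2 grafts at day 17. The part of this shift between clusters in the calls for CD4 T cells, Ifitm3 and Ly6e among them, was not tested. Ifitm3 was at 487, 630, 599 and 530 CPM in CD4 T cells of the WT and at 474, 643, 826 and 651 of the Rnls mutant grafts at day 10, and at 320.4, 144, 288 and 239 (WT) and 389, 408, 280.2 and 474 (Rnls mutant) at day 17. For Phf11b, the day 10 grafts gave 105, 86.4, 85.6 and 74.6 CPM (WT) and 101, 91.2, 82.1 and 72.1 (Rnls mutant) in CD4 T cells, and the day 17 grafts 59.8, 45.4, 34 and 60.7 (WT) and 57.9, 62.2, 58 and 74.4 (Rnls mutant). In CD4 T cells, Irf7 measured 119, 143, 168 and 185 CPM in WT grafts and 76.6, 176, 205 and 184 in Rnls mutant grafts at day 10, against 62.9, 74.2, 30.02 and 148 (WT) and 56.1, 66.3, 54 and 121 (Rnls mutant) at day 17. Ifitm3 and Phf11b overlapped between days only through Rnls mutant day 17 graft 4, and Irf7 through graft 4 of both genotypes at day 17. Ifitm3 fell by 1.07 ± 0.14 on the log2 scale (adjusted p = 2.65e-06), Phf11b fell by 0.74 and Irf7 by 1.33 on the log2 scale, by edgeR. Ly6e was at 306, 240.2, 252 and 242 CPM in CD4 T cells of the WT and at 256, 259.9, 260.4 and 246 of the Rnls mutant grafts at day 10, and at 159, 177, 290.2 and 189 (WT) and 190.3, 143, 174 and 167 (Rnls mutant) at day 17. For Zbp1, the day 10 grafts gave 87.4, 85.2, 77.9 and 57.9 CPM (WT) and 97.9, 62.2, 61.9 and 76 (Rnls mutant) in CD4 T cells, and the day 17 grafts 60.6, 78.4, 62 and 27 (WT) and 34.9, 49.7, 30.02 and 32.5 (Rnls mutant). The days overlapped for both. Ly6e fell by 0.59 and Zbp1, which senses Z-form nucleic acid, by 0.82 on the log2 scale. In CD4 T cells, Ddx58 measured 27.8, 20.7, 24.8 and 22.8 CPM in WT grafts and 25.9, 23.1, 21.2 and 24.7 in Rnls mutant grafts at day 10, against 37.6, 49.5, 40.03 and 30.3 (WT) and 25.7, 43.5, 40.03 and 37.2 (Rnls mutant) at day 17. Ddx58, which encodes the RNA sensor RIG-I, was the member that rose (0.51 ± 0.14, adjusted p = 0.00599 by edgeR), and it was not called higher in the fit without the filter. Ifit1 was not called in CD4 T cells (-0.38 ± 0.60). WT day 17 graft 4 alone was at 172 CPM of Ifit1 there, and without it the log2 fold change was -1.32.

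Transcripts of myeloid cells inside the lymphocyte sums moved with the groups. A list of 10 myeloid genes, Lyz2, Apoe and the C1q genes among them, had a median of 197 CPM in CD4 T cells of WT day 10, 96.7 of Rnls mutant day 10, 303 of WT day 17 and 1100 of Rnls mutant day 17 grafts, with 10 of 10 genes detected in each group and ranges of 184 to 211, 71.9 to 120, 290 to 378 and 1031 to 1251. In NK cells the medians were 288, 123, 322 and 949, in Treg 188, 108, 323 and 866 (6 to 9 of 10 genes detected), and in CD8 T cells 254, 120, 401 and 1173, in the same order. Their part in the lymphocyte results was not tested.

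In CD8 T cells 9 of 23 members tested fell and 0 rose, and 10.8% of all genes were called lower, with a ratio of summed levels of 0.833. Ly6e was at 229, 209, 181 and 196 CPM in CD8 T cells of the WT and at 189.5, 177, 197 and 164 of the Rnls mutant grafts at day 10, and at 80.5, 135, 176 and 129.8 (WT) and 162, 195, 107 and 111 (Rnls mutant) at day 17. For Isg15, the day 10 grafts gave 256, 189, 181 and 98.8 CPM (WT) and 165, 151, 105 and 142 (Rnls mutant) in CD8 T cells, and the day 17 grafts 65.1, 170.1, 51.6 and 189.8 (WT) and 48.8, 64, 82.9 and 77.5 (Rnls mutant). The days overlapped for both. Ly6e fell by 0.64 ± 0.13 on the log2 scale (adjusted p = 0.000731) and Isg15 fell by 1.00 ± 0.21 on the log2 scale (adjusted p = 0.00107), by edgeR. In CD8 T cells, Ifitm3 measured 90.9, 117, 112 and 64.4 CPM in WT grafts and 92.2, 168, 91.4 and 122 in Rnls mutant grafts at day 10, against 52.7, 5, 62 and 39.9 (WT) and 113, 114, 114 and 88.6 (Rnls mutant) at day 17. All 4 WT grafts of day 17 lay below every other graft for Ifitm3. It fell by 0.80, Irf9 by 0.54 and Zbp1 by 0.57 on the log2 scale. The count of 9 went to 5 without WT day 17 graft 1.

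NK cells and Treg had few members above the filter. In NK cells 4 of 10 tested fell, where 6.56% of all genes were called lower. Oasl1 was at 73.2, 100.4, 133 and 88.8 CPM in NK cells of the WT and at 15, 71, 35.6 and 54.1 of the Rnls mutant grafts at day 10, and at 0, 10.4, 0 and 43.4 (WT) and 0, 9.62, 6.91 and 0 (Rnls mutant) at day 17. For Isg15, the day 10 grafts gave 238, 334, 392 and 267 CPM (WT) and 67.6, 265, 107 and 193 (Rnls mutant) in NK cells, and the day 17 grafts 122, 51.8, 121 and 203 (WT) and 24.9, 28.9, 62.2 and 0 (Rnls mutant). In NK cells, Ifih1 measured 47.9, 81, 97.6 and 70.3 CPM in WT grafts and 15, 71, 29.7 and 61.2 in Rnls mutant grafts at day 10, against 12.8, 3.46, 0 and 0 (WT) and 24.9, 28.9, 6.91 and 14.9 (Rnls mutant) at day 17. WT grafts of day 10 had the highest mean for all 3 genes, and the days overlapped for each. Oasl1 fell by 3.18 ± 0.52 on the log2 scale (adjusted p = 0.0002), Isg15 fell by 1.87 ± 0.33 on the log2 scale (adjusted p = 0.000417), Ifih1 fell by 2.60 and Irf7 by 1.12 on the log2 scale, by edgeR. In Treg 4 of 14 tested fell, against 7.81% of all genes. Isg15 was at 447, 555, 518 and 225 CPM in Treg of the WT and at 429, 212, 577 and 269 of the Rnls mutant grafts at day 10, and at 0, 50.1 and 315 (WT) and 104, 39.2 and 91.6 (Rnls mutant) at day 17. WT day 17 graft 4 lay within the day 10 range for Isg15. Isg15 fell by 2.17 ± 0.37 on the log2 scale (adjusted p = 0.000197), Irf7 fell by 1.92, Bst2 by 0.83 and Isg20 by 1.15 on the log2 scale, by edgeR. In ILC-1, with 2 grafts per group, Ifitm3 was the 1 of 7 members called lower (-1.52 ± 0.46), where 8.25% of all genes were, and Isg15 was not called (0.49 ± 0.45). DESeq2 and the fit without the filter (0.904% of all genes lower) called 0 members in ILC-1. Without the filter 13 of 35 members were lower in CD8 T cells (6.72% of all genes), 7 of 34 in NK cells (2.68%), 6 of 36 in Treg (1.56%) and 6 of 35 in granulocytes (0.474%).

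Counted over the 9 cell types, Isg15 was called lower at day 17 in 8 of 9 types, Irf7 in 7 of 9, Xaf1 in 5 of 6 in which it was tested, Zbp1 in 5 of 7 and Bst2 in 5 of 8. Oas2 was called lower in 0 types. The share of all genes called lower ran from 4.42% in granulocytes to 25.3% in macrophages over these types. For the core members Isg15, Ifit1, Ifit3, Irf7, Rsad2, Usp18 and Bst2, exact two-sided permutation of the day labels within genotype over 10 populations gave 70 tests, of which 37 had an adjusted p under 0.05. All 7 core genes were among them in macrophages, and the p of 0.000408 reached by Isg15, Ifit1, Irf7 and Rsad2 there is the smallest that 4900 assignments allow. The permutation was run for these 7 genes alone, so no share over all genes stands beside the 37. The 10 populations include all CD45+ cells, which is the sum over the types.

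Summed over all CD45+ cells, 22 of 36 members fell and 1 rose, where 27.5% of all genes were called lower, and 22 fell against 15.8% without the filter. For Isg15, the day 10 grafts gave 519, 318, 394 and 175 CPM (WT) and 507, 348, 263 and 326 (Rnls mutant) in all CD45+ cells, and the day 17 grafts 102, 120.3, 61.4 and 97.6 (WT) and 44.1, 49.7, 69.2 and 68.3 (Rnls mutant). The days did not overlap, and Isg15 fell by 2.33 ± 0.21 on the log2 scale (adjusted p = 2.79e-07) by edgeR. In all CD45+ cells, Oas2 measured 11.5, 9.28, 14.8 and 12.4 CPM in WT grafts and 12.4, 13.5, 7.37 and 10.2 in Rnls mutant grafts at day 10, against 14.3, 14.2, 13.9 and 14.7 (WT) and 16.8, 17.7, 13.5 and 40.7 (Rnls mutant) at day 17. Oas2 rose by 0.53 ± 0.20 on the log2 scale (adjusted p = 0.0297 by edgeR), with Rnls mutant day 17 graft 4 the highest. The call was lost without WT day 10 graft 2 (adjusted p = 0.0663), Rnls mutant day 10 graft 3 (adjusted p = 0.0601) or Rnls mutant day 10 graft 4 (adjusted p = 0.0511), by edgeR. In such a sum, fewer cells of a type and less RNA per cell cannot be told apart. The 10 myeloid genes were all higher at day 17 there and the 7 T cell genes all lower.

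In macrophages, DCs, monocytes, CD4 and CD8 T cells, NK cells and Treg members were called lower in each genotype taken alone. The members tested numbered 35 in macrophages and in monocytes, 27 in DCs, 26 in CD4 T cells, 23 in CD8 T cells, 14 in Treg and 10 in NK cells, so the counts are not alike between types. In macrophages, 21 members were called lower in WT grafts (13.1% of all genes) and 23 in Rnls mutant grafts (21.4% of all genes), and the 18 shared members made up 85.7% of the first list and 78.3% of the second. In DCs the counts were 11 (4.77% of all genes) and 15 (7.04%) with 8 shared, in monocytes 4 (1.78%) and 5 (1.92%) with Irf7, Isg15 and Oasl1 shared, and in CD4 T cells 6 (10.1%) and 6 (10.4%) with 5 shared. Over all CD45+ cells 15 (17.5%) and 15 (22.4%) were lower and 13 were shared. In CD8 T cells 2 (6.32%) and 1 (4.56%) were lower with 0 shared, in NK cells 4 (4.87%) and 1 (1.2%) with Isg15 shared, and in Treg 2 (4.55%) and 1 (3.43%) with Isg15 shared. Granulocytes (1.62% and 1.4% of all genes) and ILC-1 (0.226% and 4.69%) had 0 members called lower in either genotype alone. The test of the difference between the genotypes in this change is given with the genotype comparison.

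Transcripts of the type I ligands were almost absent from the sorted CD45+ cells. Beta cells and other graft cells without CD45 were not sorted, so ligand transcripts in them were not measured. Of 18 type I interferon genes listed, 15 had 0 UMIs among 102058316, which allows up to 0.0294 CPM each (3 counts, counting error only). Ifnb1 had 8 UMIs in 6 cells, of which 7 UMIs were in WT day 10 grafts and 5 in macrophages, Ifna4 had 1 and Ifnk had 187. Ifng, the type II interferon, had 22264 UMIs, of which 13180 were in CD4 T cells. There it went from 982 ± 414 CPM at day 10 to 538 ± 526 at day 17 (SD, n = 8 grafts each), and it was called lower (log2 fold change -1.14 ± 0.33, adjusted p = 0.00947 by edgeR). The CD4 T cell grafts of day 17 ran from 162 to 1617 CPM. Ifng was at 324 ± 69.1 and 346 ± 221 CPM in CD8 T cells and at 236 ± 72.8 and 258 ± 176 in NK cells (n = 8 each). In ILC-1 it was at 881 ± 986 and 766 ± 775 (n = 4 each), and in all CD45+ cells at 286 ± 72.2 and 109 ± 111.

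Receptors, kinases, inhibitors and sensors of the pathway went both ways in macrophages. The receptor chains Ifnar1 (127 ± 18.4 CPM at day 10 and 99.7 ± 11 at day 17, n = 8 each) and Ifnar2 (208 ± 30.1 and 191 ± 16.8) were both called lower, with log2 fold changes of -0.49 ± 0.10 and -0.28 ± 0.09. The interferon gamma receptor chain Ifngr2 and the kinase Jak2 fell there too, and the other gamma receptor chain, Ifngr1, rose. Of the 8 inhibitors tested 5 fell and 1 rose, led by Socs1 (-1.96 ± 0.21), which blocks the receptor's kinases. Of 13 sensing genes tested 3 fell, with Irf8 at -0.91 ± 0.10, and 1 rose, the RNA receptor Tlr7 at 1.01 ± 0.17. Of all genes tested in macrophages 25.3% were called lower, and the 3 of 13 sensing genes lie near that share.

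Most readouts of interferon gamma fell over the same interval in macrophages and DCs, and fewer were called elsewhere. Of the 18 listed, 14 of 17 tested fell and 1 rose in macrophages (25.3% of all genes were lower), and 14 of 15 fell in DCs (13.6%). The chemokine genes Cxcl9 (1840 ± 622 CPM at day 10 and 456 ± 276 at day 17 in macrophages, n = 8 each) and Cxcl10 (814 ± 201 and 161 ± 54.5) had log2 fold changes of -2.26 ± 0.26 and -2.51 ± 0.22. In CD8 T cells 6 of 12 fell (10.8% of all genes), in monocytes 4 of 17 (8.11%), and in CD4 T cells 4 of 14 fell (17.7%) and 1, Irf1, rose. In granulocytes 2 of 12 fell (4.42% of all genes) and in NK cells 2 of 7 (6.56%). In Treg 2 of 9 fell (7.81%) and in ILC-1 0 of 4 (8.25%). The 2 lists were not compared by a test.

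The genes outside the list with the pattern most like it were in large part chaperones. Over 141 points (grafts in each cell type, each type centred on its mean) and 7874 genes, the highest Spearman correlations with the mean level of the members were those of Ifi27l2a (0.687), Psme2 (0.666), Dnaja1 (0.658), Hspa5 (0.657), Hsp90aa1 (0.656), Hspa8 (0.654), Hspd1 (0.650), Hsp90ab1 (0.647), Hspa1b (0.644) and Slfn1 (0.635). Points of 1 graft share a library, so these are descriptions. The members themselves ranged from 0.845 for Isg15 and 0.762 for Ifit1 to 0.220 for Ifitm3 and 0.192 for Samd9l. Each member is part of the mean it was set against, which raises its value, so these cannot be compared with the genes outside the list. In macrophages Hsp90aa1 was at a mean of 2301 CPM in WT day 10, 2435 in Rnls mutant day 10, 391 in WT day 17 and 321 in Rnls mutant day 17 grafts, and Dnaja1 at 3068, 3019, 441 and 470. These chaperone genes moved with the day beside the interferon genes, and their part in the result was not tested.

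The comparison of Rnls mutant with WT grafts asked whether the genotype of the beta cells went with the level of these genes in the infiltrate, and with the filter on low counts edgeR called 0 of the members tested in any population at either day. At day 10 the share of all genes called in either direction was 0.0796% in all CD45+ cells, 0.229% in CD4 T cells, 0.314% in CD8 T cells, 0.0175% in DCs, 0.971% in granulocytes, 0% in ILC-1, 0.0322% in macrophages, 0% in monocytes, 0.0306% in NK cells and 0.172% in Treg. At day 17 it was 0.0159% in all CD45+ cells, 0.433% in CD4 T cells, 0.376% in CD8 T cells, 0.0175% in DCs, 0.216% in granulocytes, 0.0565% in ILC-1, 0% in macrophages, 0% in monocytes, 0.184% in NK cells and 0.0429% in Treg. Few genes of any kind were called in these comparisons, which were not paired by mouse. Without the filter edgeR did call members. At day 10 these were Isg15, Ifit1 and Ifih1 in CD4 T cells (0.478% of all genes were called) and Isg15, Oasl1 and Rsad2 in NK cells (0.0963%), all lower in Rnls mutant grafts, and Ifitm3 in Treg (0.119%), which was higher. At day 17 they were Isg15, Ifit1 and Ifih1, lower, and Ifitm3, higher, in CD4 T cells (0.69%), Isg20, lower, and Ifitm3, higher, in CD8 T cells (0.285%), and Oasl1 and Ifitm3, both lower, in DCs (0.238%). At an unadjusted p under 0.05 the members numbered 1 of 36 in all CD45+ cells, 1 of 35 in macrophages, 1 of 27 in DCs, 5 of 26 in CD4 T cells, 2 of 23 in CD8 T cells, 2 of 14 in Treg, 3 of 10 in NK cells and 1 of 7 in ILC-1 at day 10, and 0 in monocytes and granulocytes. The share of all genes at that threshold was 7.07%, 7.06%, 5.4%, 8.44%, 8.34%, 9.14%, 4.9% and 6.67% in the same order, 2.46% in monocytes and 12.5% in granulocytes. At day 17 they numbered 2, 2, 4, 5, 2, 0, 1 and 0 in the same order, with 0 in monocytes and 2 in granulocytes, where the share of all genes was 8.22%, 6.14%, 5.84%, 8.93%, 8.53%, 9.22%, 5.88%, 3.67%, 5.07% and 9.82%.

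At day 10, Isg15, Oasl1 and several other members with a small unadjusted p had lower values in CD4 T cells or NK cells of Rnls mutant grafts, whereas Ifitm3 in Treg, with the smallest adjusted p of any member (0.215 by edgeR), had a higher mean. The medians of the myeloid genes given above were lower in lymphoid cells of these mutant grafts, and their part in the result was not tested. At day 10, Isg15 in CD4 T cells was at 195, 205, 189.7 and 124 CPM in WT grafts and at 120.3, 92.4, 64 and 96.3 in Rnls mutant grafts. The genotypes did not overlap, and the log2 fold change was -1.005 ± 0.31 (adjusted p = 0.224 by edgeR). At day 10, Isg15 in NK cells was at 238, 334, 392 and 267 CPM in WT grafts and at 67.6, 265, 107 and 193 in Rnls mutant grafts. Here 1 mutant graft lay within the WT range (-1.04 ± 0.31, adjusted p = 0.527 by edgeR). At day 10, Ifit1 in CD4 T cells was at 38.4, 61.5, 46.7 and 17.5 CPM in WT grafts and at 8.25, 13, 9.57 and 13.1 in Rnls mutant grafts. The groups were again apart (-1.93 ± 0.61, adjusted p = 0.243 by edgeR). At day 10, Ifih1 in CD4 T cells was at 43.7, 43.8, 49.5 and 41.2 CPM in WT grafts and at 21.2, 30.8, 14.1 and 26.1 in Rnls mutant grafts. At day 10, Parp14 in CD4 T cells was at 101, 104, 86.4 and 73.7 CPM in WT grafts and at 64.8, 60.4, 56.9 and 78.4 in Rnls mutant grafts. Ifih1, the RNA sensor MDA5, did not overlap between genotypes and Parp14 did, with log2 fold changes of -0.99 ± 0.32 and -0.52 ± 0.16, and neither was called. With day 10 fitted alone, Isg15, Ifit1 and Ifih1 were called lower in CD4 T cells of Rnls mutant grafts (0.887% of all genes were called), as they were without the filter, and Ifit1 was called without WT day 17 graft 4 (adjusted p = 0.0270 by edgeR). Exact permutation gave p = 0.0286 for Isg15 and for Ifit1 in CD4 T cells at day 10, the smallest that 4 grafts against 4 allow, and an adjusted p of 0.5 over 70 tests.

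In other populations the same gene went both ways. Isg15 had a negative log2 fold change in Rnls mutant grafts in 5 of 9 cell types at day 10 and in 6 of 9 at day 17. In macrophages its log2 fold change was 0.26 ± 0.35 at day 10 and -0.98 ± 0.39 at day 17 (adjusted p = 0.79 by edgeR). At day 17 the macrophage values of both genotypes, printed with the change over time, did not overlap. The difference between the 2 days was not called (-1.24 ± 0.52, adjusted p = 0.478 by edgeR). At day 10, Oasl1 in NK cells was at 73.2, 100.4, 133 and 88.8 CPM in WT grafts and at 15, 71, 35.6 and 54.1 in Rnls mutant grafts. Oasl1 had the smallest unadjusted p in NK cells at day 10 (log2 fold change -1.28 ± 0.35) and was not called. The summed level in NK cells at day 10 was 1946 ± 210 CPM in WT and 1521 ± 239 in Rnls mutant grafts (SD, n = 4 each), with ranges that did not overlap, and no test is given for a sum of members.

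**Figure D5:**
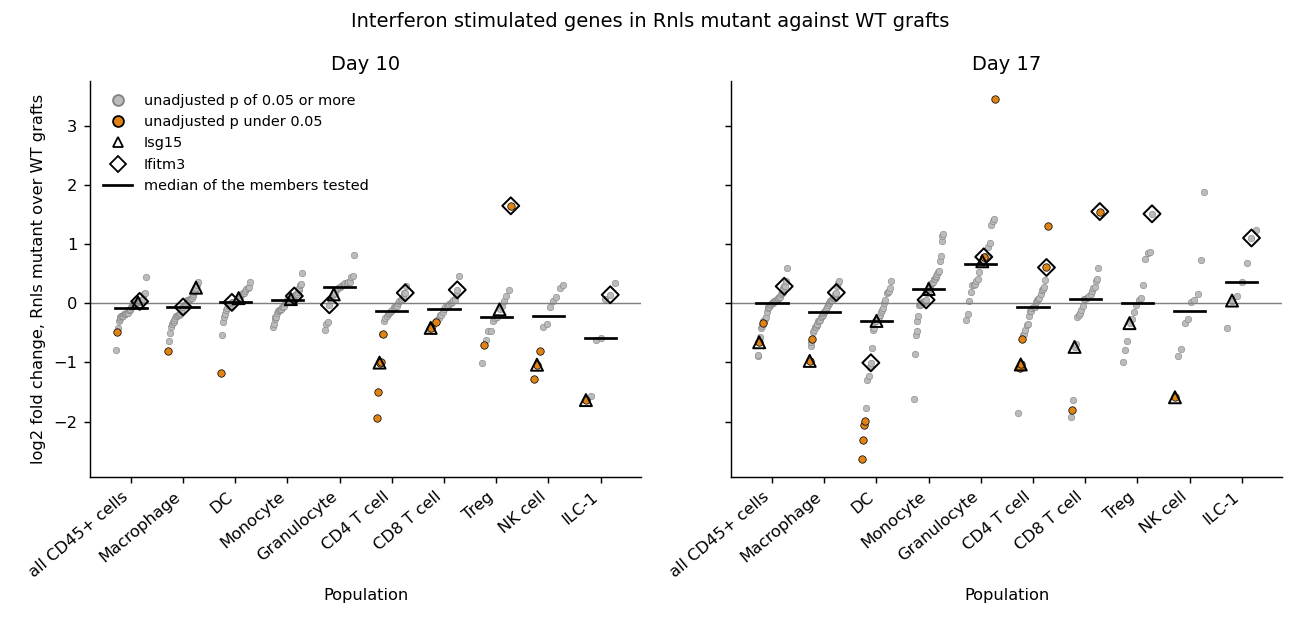
Log2 fold change of each member tested in Rnls mutant over WT grafts at day 10 (left) and day 17 (right) in 10 populations; orange points had an unadjusted p under 0.05 by edgeR, triangles mark Isg15, diamonds Ifitm3 and bars the median of the members tested. The medians at day 10 lie between -0.58 in ILC-1 and 0.26 in granulocytes, and Ifitm3 in CD8 T cells stands at 1.55 at day 17.

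Ifitm3 had higher values in some lymphocytes of Rnls mutant grafts, and whether it was called depended on the setting. At day 17, Ifitm3 in CD8 T cells was at 52.7, 5, 62 and 39.9 CPM in WT grafts and at 113, 114, 114 and 88.6 in Rnls mutant grafts. The genotypes did not overlap, and the log2 fold change was 1.55 ± 0.40 (adjusted p = 0.106 by edgeR). It was called by DESeq2 (adjusted p = 0.0171), by edgeR without the 5% of cells with the most UMIs (adjusted p = 0.0393) and by edgeR without the filter (adjusted p = 0.000238). At day 10, Ifitm3 in Treg was at 91.9, 185, 53.6 and 116 CPM in WT grafts and at 115, 635, 538 and 22.4 in Rnls mutant grafts. Of the mutant grafts, 2 were high and 1 was below every WT graft (1.65 ± 0.49, adjusted p = 0.215 by edgeR). In Treg it was called without Rnls mutant day 10 graft 4 (adjusted p = 0.0148) and without the filter (adjusted p = 4.38e-05), by edgeR. Ifitm3 is abundant in myeloid cells, and the myeloid genes given above were at a median of 401 CPM in CD8 T cells of WT and 1173 of Rnls mutant grafts at day 17. Their part in the result was not tested.

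The edgeR test of the difference between genotypes in the change from day 10 to day 17 called 0 members in 10 populations with the filter on low counts, and the members at an unadjusted p under 0.05 numbered 4 in DCs, 4 in CD8 T cells, 3 in NK cells, 2 in macrophages, 1 each in all CD45+ cells, CD4 T cells and Treg, and 0 in the other populations. The share of all genes at that threshold was 6.02% in DCs, 10.1% in CD8 T cells, 8% in NK cells, 9.36% in macrophages, 9.47% in all CD45+ cells, 8.69% in CD4 T cells, 11.7% in Treg, 12.9% in granulocytes, 5.76% in ILC-1 and 5.04% in monocytes. Without the filter edgeR called Ifitm3 in CD8 T cells (1.36, where 0.469% of all genes were called) and in NK cells (2.31, 0.212%), and Oasl1 (-2.41) and Oasl2 (-2.96) in DCs (0.232%). All genes called in that test made up 0.143% in all CD45+ cells, 0.636% in CD4 T cells, 0.658% in CD8 T cells, 0.0351% in DCs, 1.29% in granulocytes, 0.0565% in ILC-1, 0.0322% in macrophages, 0% in monocytes, 0.398% in NK cells and 1.12% in Treg. The largest differences among members at an unadjusted p under 0.05 were those of Oasl2 in DCs (-2.99 ± 1.02) and Ifih1 in NK cells (2.68 ± 1.15), of opposite sign. In macrophages the members' median was 0.02, beside -0.01 over all genes tested.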

How the data were processed

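Single-cell RNA-seq with hashtag antibodies was done by the authors on sorted CD45+ cells, and the deposited table holds UMI counts per gene and cell with each cell's library, hashtag and cell type. The submitters' processing notes name Cell Ranger and mm10, with versions not given in the sources used here. The deposited cells had at least 1001 UMIs and at most 9.74% mitochondrial UMIs, and 2 of the 38 genes were not analysed here. The genes and the other lists were chosen with earlier results of these data known.

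UMI counts were summed per graft and deposited cell type (at least 10 cells, and at least 2 grafts in each of 4 groups) and tested with edgeR 4.0.16 in R 4.3.3 (TMM scaling, its default filter on low counts, quasi-likelihood test), with all 4 groups in 1 fit and Benjamini-Hochberg adjustment over all genes tested. Pooled grafts of 1 library are treated as replicates, so p-values measure the spread between grafts within a library. Core genes were also tested by exact two-sided permutation of their CPM. Shares of cells were taken after thinning each cell to 1000 UMIs. No doublet caller was run, and a fit without the 5% of cells with the most UMIs (1144 cells) was an alternative. Other alternatives were DESeq2 1.42.0, no filter, at least 20 cells, days fitted alone, the hashtag number as a block and leaving out each graft. The fitting script was tested on simulated data.

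Each of the 36 genes could be named. Values per graft are given for 7 core genes and for up to 5 genes per direction with the smallest adjusted p, or the 3 smallest unadjusted p where none passed. Pathway genes were named up to 5 per list, and 10 genes most like the members. Motifs were searched in RefSeq windows of GRCm38, and gene positions are those of GENCODE on GRCm38.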

Additional observations from a re-analysis of the deposited data

Results flagged for a closer look

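Among 58 groups of 4 grafts examined, 2 held a graft that stood apart from the other 3 by more than Dixon's 95% critical value, which chance gives in about 1 of 20 groups. In Treg, the summed level of the members in WT day 10 graft 4 was 2055 CPM, and the other 3 grafts of that group lay between 3662 and 3780. In macrophages, Isg15 in WT day 17 graft 2 was at 150.2 CPM, and the other 3 grafts lay between 63.0 and 70.3.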

How the results depend on the processing

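The count of members lower at day 17 in macrophages was 28 to 31, in DCs 20 to 22 and in all CD45+ cells 19 to 24 as single grafts were left out. It was 7 to 13 in CD4 T cells, 4 to 5 in NK cells, 5 to 11 in CD8 T cells (5 without WT day 17 graft 1), 10 to 22 in monocytes (10 without WT day 17 graft 1), 1 to 10 in granulocytes (1 without WT day 17 graft 4 and 10 without WT day 10 graft 4), 4 to 7 in Treg (7 without Rnls mutant day 17 graft 1) and 0 to 1 in ILC-1. Without the filter on low counts, 7 members were called in NK cells and 0 in ILC-1, where DESeq2 and the hashtag block also gave 0.

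For Rnls mutant against WT, the fit without the filter called 3 members in CD4 T cells, 3 in NK cells and 1 in Treg at day 10, and 4 in CD4 T cells, 2 in CD8 T cells and 2 in DCs at day 17. For the difference between the days it called 1 in CD8 T cells, 2 in DCs and 1 in NK cells. Day 10 fitted alone called 3 in CD4 T cells. DESeq2 called 1 in CD8 T cells at day 17, as did the fit without the cells with the most UMIs. Leaving out single grafts gave 0 to 1 in CD4 T cells and in Treg at day 10. The cause of these changes was not tested.

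Ifit1 changed sign from day 10 to day 17 with DESeq2 in CD4 T cells (0.25) and CD8 T cells (0.18), and in CD4 T cells its log2 fold change ran from -1.32 to 0.00869 over grafts left out. Isg15 in macrophages at day 10 ran from -0.036 to 0.52 for genotype. Without the 3 most abundant members the ratio of day 17 to day 10 was 0.638 in all CD45+ cells, 0.475 in macrophages, 0.589 in monocytes and 1.17 in ILC-1, against 0.936 with them. From the mean log2 level it was 0.710 in all CD45+ cells, 0.296 in DCs, 0.561 in macrophages, 0.4825 in monocytes, 0.454 in NK cells and 0.469 in Treg.

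The labels do not say whether equal hashtag numbers mark 1 mouse, and the numbers were not taken as pairs. The main genotype p-values by edgeR thus leave out that WT and mutant grafts lay in the same mice. Of 4 same-numbered pairs, 1 to 3 correlated over 0.1 (-0.51 to 0.54 over 3 populations and 2 days). So few pairs cannot settle whether equal numbers mark 1 mouse. In CD4 T cells at day 17 all 4 lay above 0 (0.051 to 0.257) and 7 of 8 grafts correlated best with their own number, against 2 to 4 of 8 elsewhere. With the number as a replicate block, 28 members were called in macrophages, 22 in DCs, 20 in monocytes and 11 in CD8 T cells for the day, and 0 in every population for the genotype at either day and for the difference between the days. The fit with at least 20 cells could not be run for granulocytes and ILC-1.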
